A study of Homo sapiens with 15 samples.

Results

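Keratin genes were followed across 5 treatment groups of ZR-75-1, a human cell line from a luminal, estrogen receptor-positive breast cancer. A gene was taken as a keratin when its array symbol was KRT, a number and at most 1 further letter, and each gene was represented by its probe set with the highest mean over 15 arrays. Only probe sets annotated with 1 symbol were used, 14841 of 34878, and these are called named. This gave 48 keratin genes, among them the pseudogene KRT42P, of 14361 genes with a named probe set. A listed gene without a named probe set is counted as not measured, though the array may still carry it. Keratins were separated by whether that mean lay above or below 3.70 on the log2 scale, the mean of the 15 array medians, which left 10 above and 38 below. Of all 14841 named probe sets 9523 lay above this line, so a place above it is common and does not by itself show expression.

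The cells, grown in serum-containing medium, received for 6 h either 0.1% ethanol as vehicle or 10 nM of MPA, PROG, DHT or DEX, and total RNA was hybridised to Affymetrix arrays, 3 arrays per group. By the usual reading of the abbreviations, MPA is medroxyprogesterone acetate, a synthetic progestin made from progesterone by adding a methyl group and an acetoxy group. PROG stands for progesterone itself, DHT for the androgen dihydrotestosterone, and DEX for the synthetic glucocorticoid dexamethasone. In the labels the vehicle group is called untreated as well, and no source used here gives the solvent of the compounds, so for a change shared by all 4 compounds solvent and compound cannot be told apart. All groups are 1 cell line. Whether the 3 arrays of a group are separate cultures is not stated, and p-values then reflect only the spread between arrays, which may be technical.

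Keratins are the intermediate filament proteins of epithelial cells. They assemble as pairs of a type I and a type II chain into a network that anchors at desmosomes and hemidesmosomes and lets the cell bear mechanical load. Simple epithelia, including the luminal cells of the breast, use KRT8 and KRT18 with KRT19 and KRT7, whereas basal and stratified layers use KRT5 and KRT14, differentiating layers KRT1, KRT4 and KRT10, and hair a set of its own.

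Array medians ran from 3.69 to 3.73, and within a group the arrays were alike (r = 0.997 to 0.998 over probe sets). Of 12 listed luminal markers 11 were measured, and all lay above the 3.70 line, with a mean log2 level of 9.40 to 9.54 per array. KRT7, KRT8, KRT18 and KRT19 among them, and KRT5, KRT14 and KRT15 among the basal markers, were sorted by this same line. The counts therefore describe levels and are no independent check of identity. Of the basal or myoepithelial markers 6 of 12 were measured and 3 lay above the line, KRT15, OXTR and NRG1, while the defining markers KRT5 and KRT14 lay below. Fibroblast markers were measured for 3 of 10 genes and blood or endothelial markers for 4 of 10, with 1 above the line in each, LUM and CD68. As in any bulk RNA sample, fewer cells with a transcript and less of it per cell cannot be told apart.

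Levels are given per probe set on the deposited log2 scale. Because probe sets differ in brightness, a higher value of 1 keratin does not show more of its transcript than of another. The place above or below the line carries the same limit. The simple epithelial keratins KRT7, KRT8, KRT18, KRT19 and KRT23 lay above the line, 5 of 6 measured, and KRT20, the keratin of intestinal epithelium, lay below. Of the 5 basal or stress keratins measured only KRT15 was above, and KRT5, KRT6C, KRT14 and KRT16 were below. Of the 14 measured suprabasal and other epithelial keratins, 3 were above: KRT4, KRT10 and KRT80. Of 13 hair keratins 1 was above, KRT85, and of 9 inner root sheath keratins 0 were. KRT6A, KRT6B, KRT17, KRT81 and KRT86 were not analysed here. The pair nearest the line was KRT85 at a mean of 4.07 just inside and KRT3 at 3.67 just outside.

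**Figure D1:**
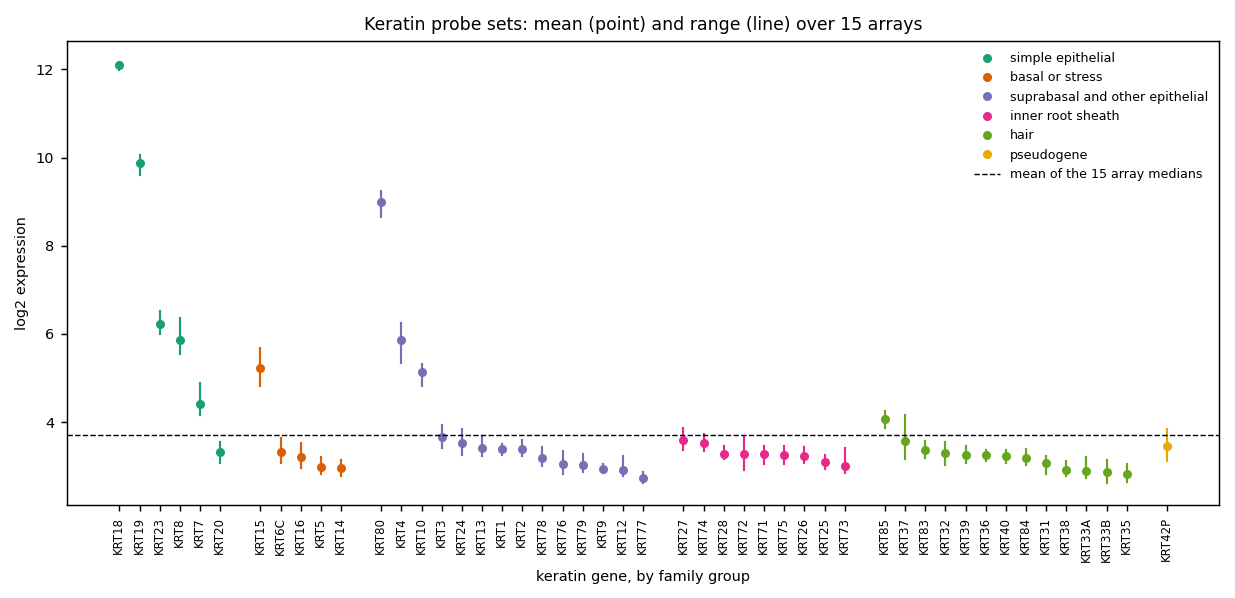
Log2 level of the 48 keratin probe sets, grouped by family, as the mean over 15 arrays (point) and the range from the lowest to the highest array (line). The dashed line is the mean of the array medians, 3.70, and 10 keratins lie above it, 5 of them simple epithelial.

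The separation was the same on single arrays for the bright set. All 10 keratins above the line exceeded the array's own median on all 15 arrays, and 32 of the 38 below it exceeded the median on none. The 38 spanned 2.61 to 4.17 over all arrays, from a mean of 2.73 for KRT77 to 3.67 for KRT3. RMA can compress changes of such dim probe sets, so a change among them may be understated, which was not tested.

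Changes are log2 differences between group means with the standard error of a limma fit over all 15 arrays and n = 3 arrays per group. A keratin is called changed when its limma adjusted p, over 14841 named probe sets within a comparison, is below 0.05. The 4 comparisons with vehicle share its 3 arrays, so they are not independent of each other, and a deviation of a vehicle array enters all of them. Of the 48 keratins 4 rose with MPA, 4 with PROG, 2 with DHT and 3 with DEX, and 0 fell with any compound in limma's test. KRT19, KRT80, KRT4 and KRT10 were called with MPA, and these 4 with PROG. DHT called KRT19 and KRT4, and DEX called KRT19, KRT15 and KRT10.

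All called keratins were among the 10 above the line. Counts of these 10 are set beside the bright probe sets, those above the line, and counts of the 48 beside all named probe sets. With MPA 4 of 10 rose, against 5.88% of the bright, and 4 of 48, against 4.11% of all. Another 1.82% of all fell. With PROG 4 of 10 rose, against 3.68% of the bright, and 4 of 48, against 2.43% of all, with 0.391% lower. With DHT 2 of 10 rose, against 1.17%, and 2 of 48, against 0.775%, with 0.115% lower. With DEX 3 of 10 rose, against 1.47%, and 3 of 48, against 0.957%, with 0.148% lower. By limma's moderated F test for any difference among the 5 groups, 4 keratins were called, KRT4, KRT19, KRT80 and KRT10, against 5.13% of all named probe sets.

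The median change of the 10 bright keratins was positive with each compound. It was 0.30 with MPA, 0.22 with PROG, 0.17 with DHT and 0.23 with DEX, whereas the median over all named probe sets lay within 0.01 of 0 in each comparison. A positive change was measured for 8 of the 10 with MPA, with PROG and with DHT, and for 9 with DEX. Of the 9523 named probe sets above the line 4606, 5012, 4902 and 5593 were positive with MPA, PROG, DHT and DEX. The median changes of those 9523 were -0.0033, 0.0067, 0.0033 and 0.017. The 38 dim keratins had medians of -0.015, -0.03, -0.047 and -0.023 with MPA, PROG, DHT and DEX. These counts are a description, as the 4 comparisons share the vehicle arrays.

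**Figure D2:**
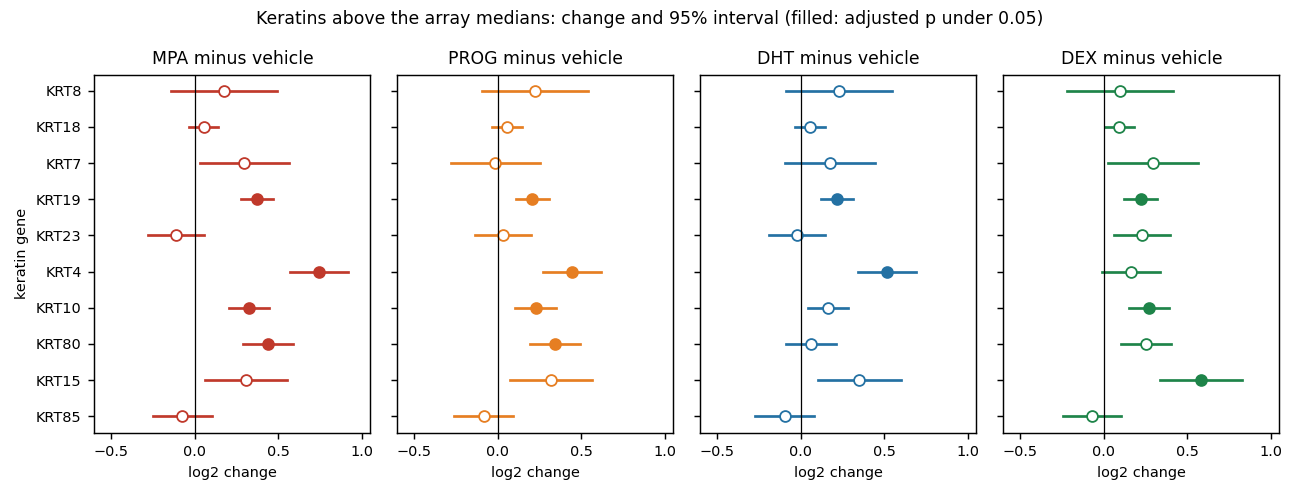
Log2 change against vehicle of the 10 keratins above the line, for MPA, PROG, DHT and DEX, with 95% intervals of the limma fit; filled points passed an adjusted p of 0.05. KRT4 with MPA has the highest value, 0.74, and KRT19 is filled for all 4 compounds.

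KRT19, the smallest keratin and a lasting marker of luminal epithelium, was the keratin called with all 4 compounds. Its gene stands between KRT15 and KRT9 in the type I cluster on chromosome 17. Its level on the 3 vehicle arrays was 9.61, 9.69 and 9.72. On the MPA arrays it was 10.06, 10.04 and 10.04, on the PROG arrays 9.83, 9.93 and 9.88, on the DHT arrays 9.88, 9.91 and 9.88, and on the DEX arrays 9.83, 9.89 and 9.96. All 12 treated arrays lay above all vehicle arrays, and the 3 MPA arrays lay above every other array. The rise with MPA was 0.37 ± 0.045, or 1.30-fold (limma adjusted p = 7.96e-05). The other rises were smaller, 0.21 with PROG (limma adjusted p = 0.0220), 0.22 with DHT (0.0401) and 0.22 with DEX (0.0304), each about 1.15-fold to 1.16-fold. The MPA call held without any 1 of its 6 arrays. The PROG call ended without vehicle 1, vehicle 2, PROG 2 or PROG 3 (adjusted p 0.0553 to 0.117), the DHT call without any 1 of its 6 arrays (0.0541 to 0.147) and the DEX call without vehicle 1, vehicle 2, DEX 2 or DEX 3 (0.0769 to 0.144), and in fits of only the 6 arrays compared the PROG, DHT and DEX calls ended too (0.136, 0.208 and 0.227). With unnamed probe sets in the test the DHT and DEX calls ended as well.

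Other luminal markers did not all move as KRT19 did. Of the 11 measured, 3 rose and 2 fell with MPA, 2 rose and 1 fell with PROG, 1 rose and 1 fell with DHT, and KRT19 alone was called with DEX. Among all probe sets above the line 5.88%, 3.68%, 1.17% and 1.47% rose with MPA, PROG, DHT and DEX. Of all named probe sets 1.82%, 0.391%, 0.115% and 0.148% fell. Besides KRT19 the rises were those of AGR2, a secreted protein of luminal cells, by 0.22 with MPA and 0.19 with PROG (limma adjusted p = 0.00682 and 0.0375), and SPDEF, an ETS-family factor, by 0.18 with MPA (0.0290). ESR1, the estrogen receptor gene, fell by 0.77 with MPA, 0.52 with PROG and 0.30 with DHT (limma adjusted p = 2.10e-06, 1.80e-04 and 0.0486), and FOXA1, a transcription factor of luminal cells, fell by 0.31 with MPA (6.25e-04). The SPDEF call ended without any 1 of its arrays except vehicle 3 (0.0531 to 0.118), and the AGR2 call with PROG without vehicle 1, vehicle 2, PROG 1 or PROG 2 (0.118 to 0.173). The ESR1 call with DHT ended without any 1 of its 6 arrays (0.0517 to 0.175), with unnamed probe sets in the test (0.0786), after centring on array medians (0.0528) and in a fit of only the 6 arrays compared (0.169). Fits of only the 6 arrays compared also ended the AGR2 and SPDEF calls (0.0621 for AGR2 with MPA, 0.176 with PROG and 0.151 for SPDEF), as did, for AGR2 with PROG and SPDEF, unnamed probe sets in the test and centring.

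KRT8 and KRT18 form the founding pair of simple epithelia. KRT8 read 5.67, 5.68 and 5.82 on vehicle, 5.88, 5.90 and 5.92 on MPA, 5.97, 6.03 and 5.84 on PROG, 5.88, 6.35 and 5.63 on DHT and 5.54, 6.04 and 5.88 on DEX. The MPA and PROG arrays all lay above vehicle, while the DHT and DEX arrays overlapped it and scattered more, with SDs of 0.366 and 0.255 against 0.084 on vehicle. No change of KRT8 was called: the MPA value of 0.18 had a 95% interval of -0.14 to 0.49 (limma adjusted p = 0.601). This probe set is annotated to a non-coding KRT8 transcript, so its level may not be that of the coding transcript.

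KRT18 read 12.07, 11.99 and 12.08 on vehicle, 12.15, 12.06 and 12.09 on MPA, 12.09, 12.13 and 12.09 on PROG, 12.11, 12.07 and 12.13 on DHT and 12.13, 12.12 and 12.17 on DEX. The PROG and DEX arrays lay above vehicle, and the others overlapped it. The differences of 0.05, 0.06, 0.06 and 0.09 were not called (limma adjusted p = 0.563, 0.686, 0.714 and 0.441). KRT18 has a further probe set with a mean of 7.61, whose changes of 0.087, 0.097, 0.037 and 0.12 were not called either. The brighter probe set stands in probe order between CMTM8 and CMTM7 of chromosome 3, whereas the other stands between KRT7 and EIF4B of chromosome 12, where RefSeq places KRT18. KRT18 has near-identical copies elsewhere in the genome, so its brighter value is uncertain as a measure of KRT18 itself.

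KRT7, a keratin of simple ductal epithelium, showed no called change over its 3 arrays per group. Its levels were 4.25, 4.17 and 4.37 on vehicle, 4.89, 4.26 and 4.53 on MPA, 4.26, 4.19 and 4.30 on PROG, 4.53, 4.42 and 4.36 on DHT and 4.42, 4.5 and 4.75 on DEX. MPA, PROG and DHT overlapped vehicle, whereas the DEX arrays all lay above it. The MPA difference was 0.30, with an interval of 0.03 to 0.56 (limma adjusted p = 0.227). Without MPA 2, its lowest MPA array, the difference was 0.45 and was called (0.0308).

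KRT23, a type I keratin of simple epithelia, set MPA and DEX apart. All 3 vehicle arrays read 6.19. The MPA arrays read 6.01, 6.18 and 6.04, all below vehicle, and the DEX arrays 6.53, 6.36 and 6.37, all above it. Neither change from vehicle was called, -0.11 with MPA (limma adjusted p = 0.505) and 0.23 with DEX (0.264). PROG read 6.19, 6.19 and 6.29 and DHT 6.34, 5.99 and 6.17, both overlapping vehicle. The level with MPA was lower than with DEX by a difference of -0.34 ± 0.077 (limma adjusted p = 0.0206). That call ended without MPA 1, MPA 3 or DEX 1 (0.0740 to 0.0938) and in a fit of only the 6 arrays compared (0.0624).

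KRT4, a type II keratin of the differentiating layers of non-keratinising stratified epithelia such as the oesophagus, had the highest called rise. Its gene lies between KRT3 and KRT79 in the type II cluster of chromosome 12. Vehicle arrays read 5.63, 5.33 and 5.50 and MPA arrays 6.24, 6.24 and 6.20. PROG arrays read 5.88, 6.10 and 5.81, DHT arrays 6.06, 5.99 and 5.96, and DEX arrays 5.56, 5.65 and 5.74. The MPA, PROG and DHT arrays all lay above vehicle, and the DEX arrays overlapped it. KRT4 rose by 0.74 ± 0.081 with MPA, or 1.67-fold (limma adjusted p = 2.98e-05), by 0.44 with PROG, or 1.36-fold (0.00584), and by 0.52 with DHT, or 1.43-fold (0.00546). With DEX the difference was 0.16, with an interval of -0.01 to 0.34 (limma adjusted p = 0.516). The 3 called rises held without any 1 of their arrays, but in fits of only the 6 arrays compared the PROG and DHT calls ended (0.105 and 0.0575).

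KRT10, the type I partner of KRT1 in differentiating epidermis, lies between KRT28 and KRT12 on chromosome 17. It read 4.98, 4.82 and 5.04 on vehicle, 5.24, 5.26 and 5.31 on MPA, 5.14, 5.25 and 5.13 on PROG, 5.06, 5.11 and 5.16 on DHT and 5.23, 5.24 and 5.18 on DEX. All 12 treated arrays lay above the vehicle arrays, and the DHT arrays came closest to them. The rises were 0.32 ± 0.056 with MPA, or 1.25-fold (limma adjusted p = 0.00207), 0.23 with PROG (0.0471) and 0.27 with DEX (0.0335). The DHT difference of 0.16 had an interval of 0.04 to 0.28 and was not called (limma adjusted p = 0.297). The MPA call held without any 1 array. The PROG call ended without vehicle 1, vehicle 2 or any 1 PROG array (0.0739 to 0.215) and the DEX call without vehicle 1, vehicle 2 or any 1 DEX array (0.0695 to 0.134), and both also ended with unnamed probe sets in the test, after centring on array medians, with an intensity trend in the prior and in fits of only the 6 arrays compared (0.234 and 0.213). Quantile normalization ended the PROG call too.

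RefSeq promoter windows, from 250 bases before to 50 after the gene start on GRCh38.p14, were at hand for 32 of the 48 keratins. They are shown for KRT4 and KRT10, the called keratins with such a window, because both rose with MPA and PROG. The KRT4 window is chr12:52814067-52814366 and the KRT10 window chr17:40822565-40822864, both on the minus strand and printed 5′ to 3′ along the gene. Capitals mark a TATAAA match in the KRT10 window, and the KRT4 window held no match to any motif searched.
KRT4: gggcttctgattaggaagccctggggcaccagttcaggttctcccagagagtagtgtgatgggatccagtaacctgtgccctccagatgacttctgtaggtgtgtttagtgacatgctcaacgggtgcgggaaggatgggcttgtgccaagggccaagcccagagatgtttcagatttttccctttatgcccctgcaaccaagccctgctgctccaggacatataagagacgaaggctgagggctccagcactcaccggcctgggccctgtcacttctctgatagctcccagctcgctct
KRT10: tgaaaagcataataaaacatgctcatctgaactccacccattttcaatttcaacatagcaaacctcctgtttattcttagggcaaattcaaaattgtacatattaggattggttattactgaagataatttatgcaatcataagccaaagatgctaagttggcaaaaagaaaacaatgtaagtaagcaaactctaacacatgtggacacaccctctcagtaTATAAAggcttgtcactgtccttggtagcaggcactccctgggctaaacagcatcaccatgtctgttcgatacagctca

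The motifs were searched on both strands and could overlap each other. The steroid receptor half-site AGAACA was in 14.8% of all 35116 promoter windows and in 5 of the 32 keratin windows, those of KRT5, KRT9, KRT25, KRT28 and KRT74. The full palindrome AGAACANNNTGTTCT was in 0.00285% of all windows and in 0 keratin windows. The estrogen receptor half-site AGGTCA was in 13.8% of windows and 3 keratins, the AP-1 motif TGANTCA in 7.71% and 0 keratins, and the grainyhead motif AACNNGTT in 3.52% and 2 keratins. None of these 5 was in the windows of the 4 bright keratins with one, KRT4, KRT8, KRT10 and KRT85. The TATA box TATAAA was in 11.5% of windows but in 19 of the 32 keratin windows, 1 of the 4 bright keratins and 18 of the 28 dim ones. These matches describe letters within 300 bases and not binding.

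KRT80, a type II keratin of many epithelia that lies near desmosomes, was called with MPA and PROG. Vehicle arrays read 8.80, 8.65 and 8.86, MPA arrays 9.25, 9.25 and 9.12 and PROG arrays 9.06, 9.14 and 9.13. DHT arrays read 8.73, 8.96 and 8.81 and overlapped vehicle, while DEX arrays read 9.11, 8.96 and 8.99 and lay above it. KRT80 rose by 0.44 ± 0.069 with MPA, or 1.35-fold (limma adjusted p = 9.85e-04), and by 0.34 with PROG, or 1.27-fold (0.0139). The DHT difference was 0.06, with an interval of -0.09 to 0.21 (limma adjusted p = 0.839), and the DEX difference 0.25, with an interval of 0.10 to 0.40 (0.146). The PROG call ended without vehicle 2, PROG 2 or PROG 3 (0.0565 to 0.0734) and in a fit of only the 6 arrays compared (0.0512).

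KRT15, a type I keratin of basal cells and of epithelial progenitor cells, was called with DEX. Its 3 vehicle arrays read 4.97, 4.98 and 4.82, and its DEX arrays 5.35, 5.47 and 5.69, all above vehicle. PROG arrays at 5.32, 5.29 and 5.12 and DHT arrays at 5.23, 5.33 and 5.26 also lay above vehicle, whereas MPA arrays at 4.92, 5.35 and 5.42 overlapped it. The rise with DEX was 0.58 ± 0.115, or 1.49-fold (limma adjusted p = 0.0249). The differences with MPA, PROG and DHT were 0.31, 0.32 and 0.35 (limma adjusted p = 0.164, 0.228 and 0.255). Without MPA 1 the MPA difference was 0.46 and was called (0.00822), and the DEX call ended without any 1 vehicle array, DEX 2 or DEX 3 (0.0596 to 0.120) and in a fit of only the 6 arrays compared (0.0728). With DEX limma called none of the 5 basal markers measured besides KRT15. At an unadjusted p below 0.05 the limma fit held 1 of them, OXTR at -0.20 (adjusted p = 0.302). Their summed log2 level was 18.59 to 18.95 on vehicle arrays and 18.49 to 18.79 on DEX arrays. KRT5, KRT14 and TAGLN among them lay below the line, so a change of these could be missed. OXTR was called with MPA, at -0.34 (limma adjusted p = 0.00797), and this call held under every alternative.

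KRT85, a type II hair keratin, was the bright keratin nearest the line, at group means of 4.13 with vehicle and 4.06, 4.05, 4.03 and 4.06 with MPA, PROG, DHT and DEX. Its vehicle arrays read 4.26, 4.09 and 4.04, and its MPA arrays 4.25, 4.06 and 3.86. PROG arrays read 4.06, 4.0 and 4.08, DHT arrays 4.09, 3.95 and 4.06 and DEX arrays 4.04, 4.08 and 4.06. Every group overlapped vehicle, and limma called no change (adjusted p 0.709 to 0.831).

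**Figure D3:**
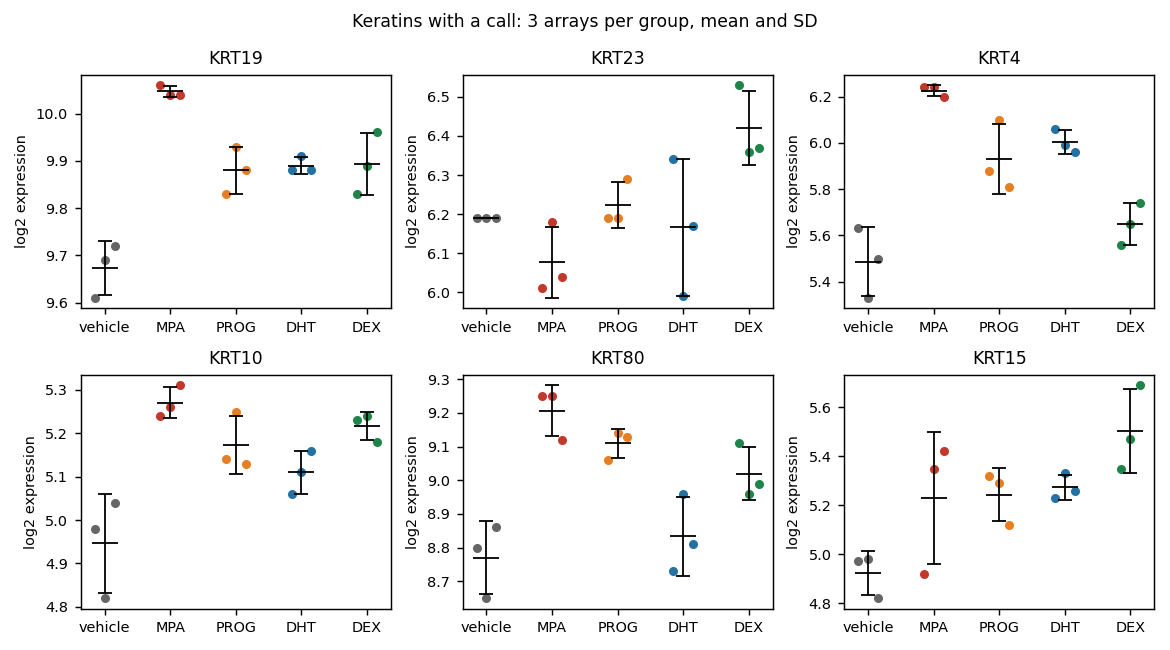
Log2 level on each of the 3 arrays per group (points) with the group mean and SD (bar), for the 6 keratins called in any comparison: KRT19, KRT23, KRT4, KRT10, KRT80 and KRT15. For KRT19, KRT4, KRT80 and KRT10 the MPA arrays all lie above the vehicle arrays, and for KRT15 the DEX arrays do.

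None of the 38 dim keratins was called by limma in any of the 10 comparisons or by the F test. At an unadjusted p below 0.05 the limma fits held 1 of them with MPA, 5 with PROG, 1 with DHT and 1 with DEX against vehicle. Over all 10 comparisons they held 26 of 380 tests. The share of all named probe sets at this unadjusted threshold was not counted, so such counts, here and below, are not read as changes. The largest change against vehicle was 0.35 in size, for the hair keratin KRT37 with MPA. The lowest adjusted p was 0.0776, for KRT42P between PROG and DHT. These include KRT5 and KRT14, the basal pair, and KRT16 and KRT6C, keratins of stressed and wounded epithelium.

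The 4 compounds were also compared with each other in 6 pairs, all at 10 nM and 6 h, each adjusted over all named probe sets within its pair. Of the 48 keratins limma called 1 between MPA and DHT, against 3.51% of all named probe sets, and 2 between MPA and DEX, against 4.06%. The other 4 pairs called 0 keratins, against 0.29% of probe sets between MPA and PROG, 1.71% between PROG and DHT, 1.42% between PROG and DEX and 0.654% between DHT and DEX. At an unadjusted p below 0.05 the limma fits of those 4 pairs held 8, 3, 7 and 4 of the 48 keratins. The share of all probe sets at that threshold was not counted, so these are not read as differences.

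KRT4 was higher with MPA than with DEX by 0.58, with an interval of 0.40 to 0.75 (limma adjusted p = 5.52e-04), and this held without any 1 array. KRT80 was higher with MPA than with DHT by 0.37, with an interval of 0.22 to 0.52 (limma adjusted p = 0.00551), and the lowest MPA array, 9.12, exceeded the highest DHT array, 8.96. That call held without any 1 array but ended in a fit of only the 6 arrays compared (0.0511). KRT23 was the keratin that was lower with MPA than with DEX, as given above.

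MPA and PROG, which differ by the added methyl and acetoxy groups, were not told apart for any keratin. KRT4 was 0.30 higher with MPA, with an interval of 0.12 to 0.47 (limma adjusted p = 0.226), and KRT19 was 0.17 higher, with an interval of 0.07 to 0.26 (0.221). In both genes the 3 MPA arrays lay above the 3 PROG arrays. For KRT80 the difference was 0.10, with an interval of -0.05 to 0.25, and for KRT10 0.10, with an interval of -0.02 to 0.22. These intervals include differences as large as some of the called changes against vehicle, so similar action of both compounds is not shown.

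PROG and DHT differed by 0.28 for KRT80, with an interval of 0.13 to 0.43 (limma adjusted p = 0.0707), and the lowest PROG array, 9.06, was above the highest DHT array. For KRT4 their difference was -0.07, with an interval of -0.25 to 0.10. DHT and DEX differed by 0.35 for KRT4, with an interval of 0.18 to 0.53 (limma adjusted p = 0.0733), again with arrays that did not overlap. KRT15 was called with DEX against vehicle, yet its difference between MPA and DEX was -0.27, with an interval of -0.52 to -0.03, and was not called (limma adjusted p = 0.261), so a larger response to DEX than to MPA is not shown.

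**Figure D4:**
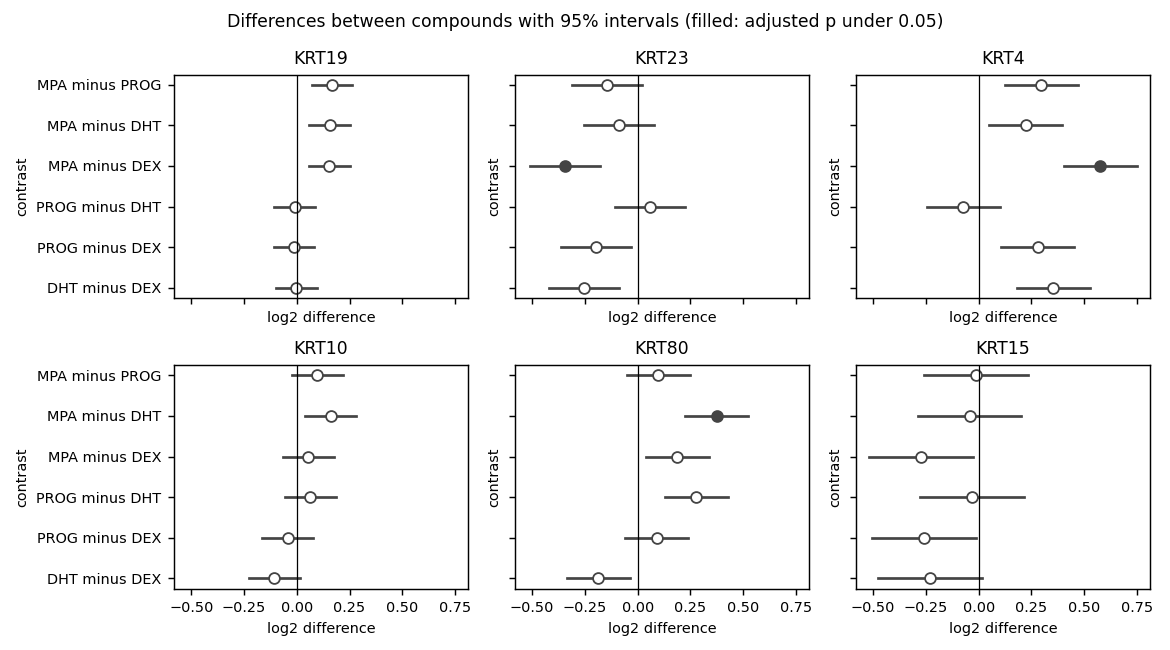
Log2 difference between compounds, first minus second, for the 6 keratins called in any comparison, with 95% intervals of the limma fit; filled points passed an adjusted p of 0.05. The filled points are KRT80 for MPA minus DHT, and KRT4 and KRT23 for MPA minus DEX.

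Genes that work with keratins were counted from 5 lists, to be read against the 4.11%, 2.43%, 0.775% and 0.957% of all named probe sets that rose with MPA, PROG, DHT and DEX and the 1.82%, 0.391%, 0.115% and 0.148% that fell. Of the desmosome genes, whose proteins anchor keratin filaments at cell contacts, 13 of 14 were measured. With MPA 2 rose, PKP2 by 0.31 (limma adjusted p = 0.00150) and DSP, the plakin that binds the filaments, by 0.17 (0.0434). With PROG 2 rose, DSP by 0.18 (limma adjusted p = 0.0487) and PKP1 by 0.33 (0.0487), whose mean of 3.36 lies below the line. None was called with DHT or DEX, where the limma fits held 0 and 1 at an unadjusted p below 0.05. The PKP2 call held without any 1 array, but both DSP calls and the PKP1 call ended without any 1 of their 6 arrays (0.0582 to 0.165 and 0.0886 to 0.184 for DSP, 0.112 to 0.146 for PKP1).

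Of 6 measured cytolinker and hemidesmosome genes 1 fell and 1 rose with MPA. DST, a plakin of the hemidesmosome, fell by 0.34 with MPA (limma adjusted p = 2.67e-04). TRIM29, a keratin-binding protein, rose by 0.28 with MPA (limma adjusted p = 0.0460) from below the line, and lost its call without any 1 of its arrays except MPA 3 (0.0927 to 0.182). PROG, DHT and DEX called 0 of these 6 by limma, with 2, 1 and 1 at an unadjusted p below 0.05. Of 8 measured other intermediate filament genes, which include vimentin and lamin genes among those listed, limma called 0 with any compound, with 0, 0, 0 and 1 at an unadjusted p below 0.05. Of 11 measured genes of the cornified envelope, the protein shell of differentiated keratinocytes, 1 rose with MPA and with PROG, SCEL. SCEL rose by 0.61 ± 0.11 with MPA (limma adjusted p = 0.00303) and by 0.58 with PROG (0.00802), from 3.60 on vehicle to 4.21 and 4.18. Its vehicle mean lay below the line, and its DHT and DEX means of 3.70 and 3.74 lay close to the line. The PROG call ended without PROG 2 (0.0526), and DHT and DEX called 0 of the 11 by limma, with 0 and 1 at an unadjusted p below 0.05.

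The list of epithelial transcription factors, 8 of 12 measured and all above the line, held the most calls of the 5 lists. All 5 lists were chosen with earlier results of these data known. Their counts therefore describe the genes named and are no test of the lists. With MPA 4 rose and 1 fell, with PROG 5 rose, with DHT 2 rose and with DEX 1 rose, of 8. Among all probe sets above the line 5.88%, 3.68%, 1.17% and 1.47% rose with MPA, PROG, DHT and DEX. The median changes of the 8 were 0.22, 0.28, 0.01 and 0.083. TP63, ELF3, TFAP2A and CEBPB were not analysed here.

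EHF, an ETS-family factor of epithelial cells, rose with all 4 compounds. Its vehicle arrays read 10.29, 10.32 and 10.25, its MPA arrays 10.81, 10.86 and 10.87, its PROG arrays 10.71, 10.73 and 10.69, its DHT arrays 10.71, 10.75 and 10.76 and its DEX arrays 10.59, 10.64 and 10.69. All 12 treated arrays lay above vehicle. The rises were 0.56 ± 0.040, 0.42, 0.45 and 0.35 with MPA, PROG, DHT and DEX (limma adjusted p = 3.51e-07, 1.26e-05, 3.28e-05 and 2.88e-04). Each of them held without any 1 array.

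GRHL2, a grainyhead factor that maintains the epithelial state, rose by 0.54 ± 0.042 with MPA, 0.41 with PROG and 0.29 with DHT (limma adjusted p = 9.15e-07, 2.88e-05 and 0.00353), and its DEX difference of 0.09 was not called (0.51). Vehicle arrays read 10.00, 9.92 and 10.04, MPA arrays 10.58, 10.48 and 10.53, PROG arrays 10.41, 10.38 and 10.40, DHT arrays 10.31, 10.27 and 10.24 and DEX arrays 10.06, 10.08 and 10.08. All 12 treated arrays lay above vehicle, the DEX arrays by the smallest margin. The DHT call ended in a fit of only the 6 arrays compared (0.110).

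KLF4 and KLF5, Krüppel-like factors of differentiating and of proliferating epithelium, were called with MPA and PROG. KLF4 read 6.67, 6.84 and 6.60 on vehicle, 7.13, 7.22 and 7.33 on MPA and 7.05, 7.15 and 7.02 on PROG, a rise of 0.52 ± 0.064 (limma adjusted p = 8.33e-05) and 0.37 (0.00366). KLF5 read 7.71, 7.72 and 7.69 on vehicle, 8.06, 7.99 and 8.08 on MPA and 8.10, 7.99 and 7.94 on PROG, a rise of 0.34 (limma adjusted p = 0.00178) and 0.30 (0.00816). No MPA or PROG array of either gene overlapped vehicle. KLF5 arrays also lay above vehicle with DHT, at 7.87, 7.96 and 8.06, and with DEX, at 8.0, 7.86 and 7.89. Its differences were 0.26 with DHT, with an interval of 0.13 to 0.38 (limma adjusted p = 0.0552), and 0.21 with DEX (0.138). KLF4 arrays lay above vehicle with DEX, at 6.89, 6.92 and 6.90, a difference of 0.20 (limma adjusted p = 0.225), and overlapped it with DHT, a difference of 0.06 (0.830). A restriction to MPA and PROG is therefore not shown for either gene. In a fit of only the 6 arrays compared the KLF4 call with PROG ended (0.0621). OVOL1 with PROG, at 0.26 (limma adjusted p = 0.0322), and TFAP2C with MPA, at -0.16 (0.0223), made up the other calls, and both ended without some single arrays. OVOL1 lost its call without vehicle 2, vehicle 3 or any 1 PROG array (0.0736 to 0.144), and TFAP2C without vehicle 2, vehicle 3 or MPA 1 (0.0814 to 0.0906). The calls of OVOL1, DSP, PKP1 and TRIM29 also ended with unnamed probe sets in the test. In fits of only the 6 arrays compared those of OVOL1 (0.0859), DSP (0.164 with MPA and 0.136 with PROG), TRIM29 (0.123) and TFAP2C (0.170) ended, and quantile normalization ended those of OVOL1, DSP and TRIM29. Centring on array medians ended the DSP and TRIM29 calls with MPA (0.0563 and 0.0594).

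**Figure D5:**
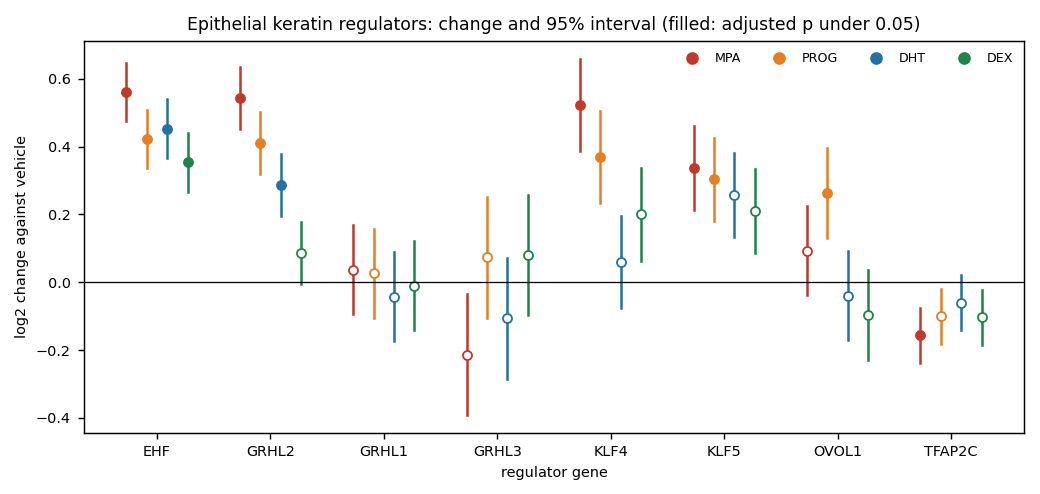
Log2 change against vehicle of the 8 measured epithelial transcription factors, for MPA, PROG, DHT and DEX, with 95% intervals of the limma fit; filled points passed an adjusted p of 0.05. EHF is filled for all 4 compounds, GRHL2 for MPA, PROG and DHT, and KLF4 and KLF5 for MPA and PROG.

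Keratin-associated protein genes and keratin pseudogenes under other symbols were counted only. Of 84 keratin-associated protein genes, which encode the matrix around hair keratins, 21 lay above the line, and of 6 pseudogenes KRT16P2 and KRT18P55 did. Of all 14841 named probe sets 9523 did. With at least 1 compound against vehicle limma called 4 of the 84 and 0 of the 6. The share of all probe sets called with at least 1 compound was not counted. With MPA alone limma called 4.11% of all named probe sets higher and 1.82% lower. The 4 calls are therefore not read as a result about these genes.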

How the data were processed

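Total RNA (300 ng) of ZR-75-1 cells was measured on 15 arrays in 5 groups of 3. The authors deposited log2 expression values with 2 decimals, made with Partek and RMA per the submitters' processing notes; no source used here gives their versions or the genome build. Group and number come from the sample titles.

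The deposited log2 values were used unfiltered. limma 3.58.1 in R 4.3.3 fitted 5 group means to 14841 probe sets with 1 symbol, with 10 residual degrees of freedom, a prior of 3.81, 2-sided tests and Benjamini-Hochberg adjustment within each of 10 contrasts. The procedure was tested on simulated data. Gene symbols are those of the platform annotation (0 were updated). Keratins called or above the line are given in full, the others as counts, and up to 4 called members per partner list, those with the largest change. OVOL1, TFAP2C, ESR1, FOXA1, AGR2, SPDEF and OXTR fall outside that rule and were named after their values were seen. The keratins and lists were chosen with earlier results of these data known. Alternatives covered the probe sets tested, normalization, variance prior, replicate block, arrays fitted and probe set choice, and left out each array in turn.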

Additional observations from a re-analysis of the deposited data

How the results depend on the processing

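All 16 keratin calls kept their direction under the alternatives tried; 5 stayed called under every one (KRT19, KRT80, KRT4 and KRT10 with MPA, and KRT4 between MPA and DEX) and 8 without any 1 array. Testing all probe sets left 1 keratin called with DHT and 1 with DEX, where more features enter the adjustment. Bright probe sets alone gave 2 for MPA against DHT, 1 for PROG against DHT and 1 for DHT against DEX, where fewer features enter it. Quantile normalization gave 1 for DHT against DEX, and an intensity trend gave 2 for MPA against DHT and 1 for PROG against DHT; the cause was not tested. Fitting only the arrays compared, with fewer degrees of freedom, gave 0 with PROG, 0 with DHT, 0 with DEX, 0 for MPA against DHT and 1 for MPA against DEX. Without 1 array the counts ran from 1 to 4 with PROG, were 1 with DHT, and ran from 0 to 2 with DEX, from 1 to 2 for MPA against DEX and from 0 to 1 for PROG against DHT. The KRT23 difference with PROG turned to -0.004 under quantile normalization. Uncalled differences that changed sign without 1 array were KRT7 with PROG (-0.06 to 0.04), KRT85 with MPA (-0.17 to 0.025), KRT23 with DHT (-0.11 to 0.065) and KRT8 with DEX (-0.013 to 0.237).

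Same-numbered arrays did not deviate together (30 correlations from -0.072 to 0.068, 0 of them over 0.1). Whether they share a culture or a day is not stated, and these correlations cannot show it. With the replicate block, 3 keratins were called with PROG and 2 with DEX, without KRT10 in either (limma adjusted p = 0.0780 and 0.0599). The replicate block also ended the DSP calls with MPA and PROG (0.0735 and 0.0871), the PKP1 call with PROG (0.0768), the AGR2 call with PROG (0.0559) and the ESR1 call with DHT (0.0581). Alternatives for luminal and basal markers were added after seeing the data. The number above the line stayed 10 without any 1 array and was 8 against the median of named probe sets, 4.81. Dim probe sets near background limit what the 38 lower keratins can show.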
